A study of Mus musculus with 16 samples.

Results

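Il17a, Il17f, Il21, Il22, Il24 and Il10 encode secreted cytokines of Th17 cells, the class of helper T cells named after interleukin 17. The 6 genes were taken by symbol from a table of estimated counts for 15571 genes, and all 6 were among the 14985 genes that passed the filter on low counts. The table came from RNA sequencing of 16 libraries of mouse Th17 cultures, in a series on pyruvate dehydrogenase (PDH), the mitochondrial complex that turns pyruvate into acetyl-CoA. Acetate can be turned into acetyl-CoA by another route. Each of 4 groups had 4 libraries. WT untreated and WT acetate cells came from PDH fl/fl mice, which carry loxP-flanked PDH alleles and no Cre. KO untreated and KO acetate cells came from PDH fl/fl CD4-Cre mice, in which Cre is driven by the Cd4 promoter. All 4 groups therefore carry the floxed alleles, and no group carried CD4-Cre alone. Naive CD4 T cells of spleen and lymph nodes were sorted on magnetic beads and cultured for 3 days with 5 µg/mL plate-bound anti-CD3 and 1 µg/mL anti-CD28, under 30 ng/mL IL-6 with 2 ng/mL TGFβ and with 5 µg/mL anti-IFNγ. The acetate groups had 10 mM sodium acetate throughout, and no group had another sodium salt. The sample titles write PHD where the protocols write PDH, and the labels do not say which PDH gene was floxed, the age or strain of the mice, or whether libraries came from separate animals. The p-values below therefore measure the spread between these libraries, which may be technical.

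IL-17A and IL-17F are secreted as homodimers and as a mixed dimer, and act through IL-17RA and the adaptor encoded by Traf3ip2 on epithelial and stromal cells, where they induce chemokines and antimicrobial proteins. IL-21 signals through IL-21R and the common gamma chain (Il2rg) to T and B cells, and IL-22, IL-24 and IL-10 belong to the IL-10 family, whose receptors use JAK kinases and mainly STAT3. In Th17 cells STAT3, activated by IL-6, IL-21 and IL-23, and the nuclear receptor encoded by Rora are known drivers of Il17a and Il17f.

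Il17a and Il17f are neighbours. On the GRCm38 build with GENCODE M21 annotation, Il17a is at chr1:20730905-20734496 on the + strand with 3 exons, and Il17f at chr1:20777146-20790617 on the - strand, 42.65 kb apart with no other protein-coding gene between them. Il24, at chr1:130882074-130887454 on the - strand, and Il10, at chr1:131019845-131024974 on the + strand, lie on the same chromosome with a gap of 132.391 kb that holds Il19 and Il20, which were not in the count table. Il21 lies at chr3:37222759-37232636 on the - strand, and its nearest protein-coding neighbour on the left is Il2, 96.8 kb away. Il22 is at chr10:118204942-118210047 on the + strand. Its near-identical copy Iltifb, 79.582 kb away, held 1 to 18 estimated counts per library, so the split of reads between the 2 copies is uncertain for low Il22 counts. The build used by the authors is not given in the sources used here, and these positions come from the annotation alone.

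The promoters of the 3 members with the most counts are shown because their transcripts moved in different directions. They are from RefSeq (GRCm38.p6), read 5′ to 3′ on the strand of the gene and ending just before its start. Capitals mark matches to motifs of factors known to act on these genes, searched on both strands: ROR (AGGTCA), STAT (TTCNNNGAA), AP-1 (TGANTCA), NFAT (GGAAA), hypoxia element (ACGTG) and MAF (TGCTGA). The Il17f stretch lies inside the longest GENCODE model of the gene and was shortened to leave out an annotated exon.
Il17a promoter, chr1:20730655-20730904, + strand: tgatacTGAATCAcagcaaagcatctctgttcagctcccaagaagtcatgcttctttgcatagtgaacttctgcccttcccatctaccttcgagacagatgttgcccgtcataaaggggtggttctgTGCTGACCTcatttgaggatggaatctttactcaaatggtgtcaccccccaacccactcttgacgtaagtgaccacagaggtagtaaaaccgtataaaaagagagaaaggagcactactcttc
Il17f promoter, chr1:20784271-20784494, - strand: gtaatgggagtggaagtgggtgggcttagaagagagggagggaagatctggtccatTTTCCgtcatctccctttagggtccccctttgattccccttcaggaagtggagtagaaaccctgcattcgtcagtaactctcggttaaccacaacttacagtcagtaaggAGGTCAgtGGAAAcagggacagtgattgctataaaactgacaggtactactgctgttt
Il21 promoter, chr3:37232637-37232886, - strand: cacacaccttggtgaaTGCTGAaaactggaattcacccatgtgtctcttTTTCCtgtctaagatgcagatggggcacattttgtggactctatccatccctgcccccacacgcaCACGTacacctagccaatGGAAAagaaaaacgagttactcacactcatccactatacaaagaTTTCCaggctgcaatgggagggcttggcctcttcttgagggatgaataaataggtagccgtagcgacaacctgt
In Il17a the ROR motif begins 120 bases before the start on the opposite strand and overlaps a MAF motif that begins at 123, and the AP-1 motif begins at 244. In Il17f the ROR motif begins 58 bases before the start, with NFAT motifs at 168 on the opposite strand and at 50. The Il21 stretch held no ROR match. It held NFAT motifs at 201, 118 and 74, a hypoxia element core at 136 and a MAF motif at 234. Among 32851 RefSeq promoter windows of 250 bases, 14.0% held the ROR motif, 6.75% the AP-1 motif, 55.6% the NFAT core, 16.6% the hypoxia core and 16.1% the MAF motif. In windows of 224 bases, the length of the Il17f stretch, the ROR motif was in 12.7% and the NFAT core in 51.6%. No STAT match was found in the 3 stretches, against 7.02% of windows of 250 bases. Each match is a string of letters in these windows and no measure of binding. Il22, Il24 and Il10 promoters are not shown.

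The libraries held 24.57 to 33.72 M estimated counts. In 4 of them, replicate 1 of WT untreated, replicates 1 and 2 of KO untreated and replicate 2 of KO acetate, 1 gene without a symbol took over 3% of all counts. The 8 markers used for CD4 and Th17 cells, Il17a and Il17f included, were all in the table. In KO against WT without acetate 1 of the 8 rose and 3 fell, where 18.0% of all genes rose and 18.6% fell. With acetate 2 rose and 1 fell in WT, against 7.89% and 7.55% of all genes. The 2 that rose there were Il17a and Il17f themselves. In KO 5 rose and 1 fell with acetate, against 22.1% and 21.6%, and Il17a and Il17f were among the 5. Of these markers, Cd4 and Rora averaged 384 to 458 CPM and 57.9 to 98.9 CPM in the 4 groups. CPM is a gene's estimated count divided by the TMM-scaled size of its library in M counts. Of the markers of other cells, the 4 B cell markers summed to at most 4.78 CPM per library, 3 myeloid markers to 1.39 to 3.84 CPM and 5 gamma-delta T cell markers to 3.51 to 12.6 CPM. Pdha1, which encodes a catalytic subunit of PDH, was at 210 to 273 CPM in all libraries; counts over a whole gene do not check a floxed exon.

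**Figure D1:**
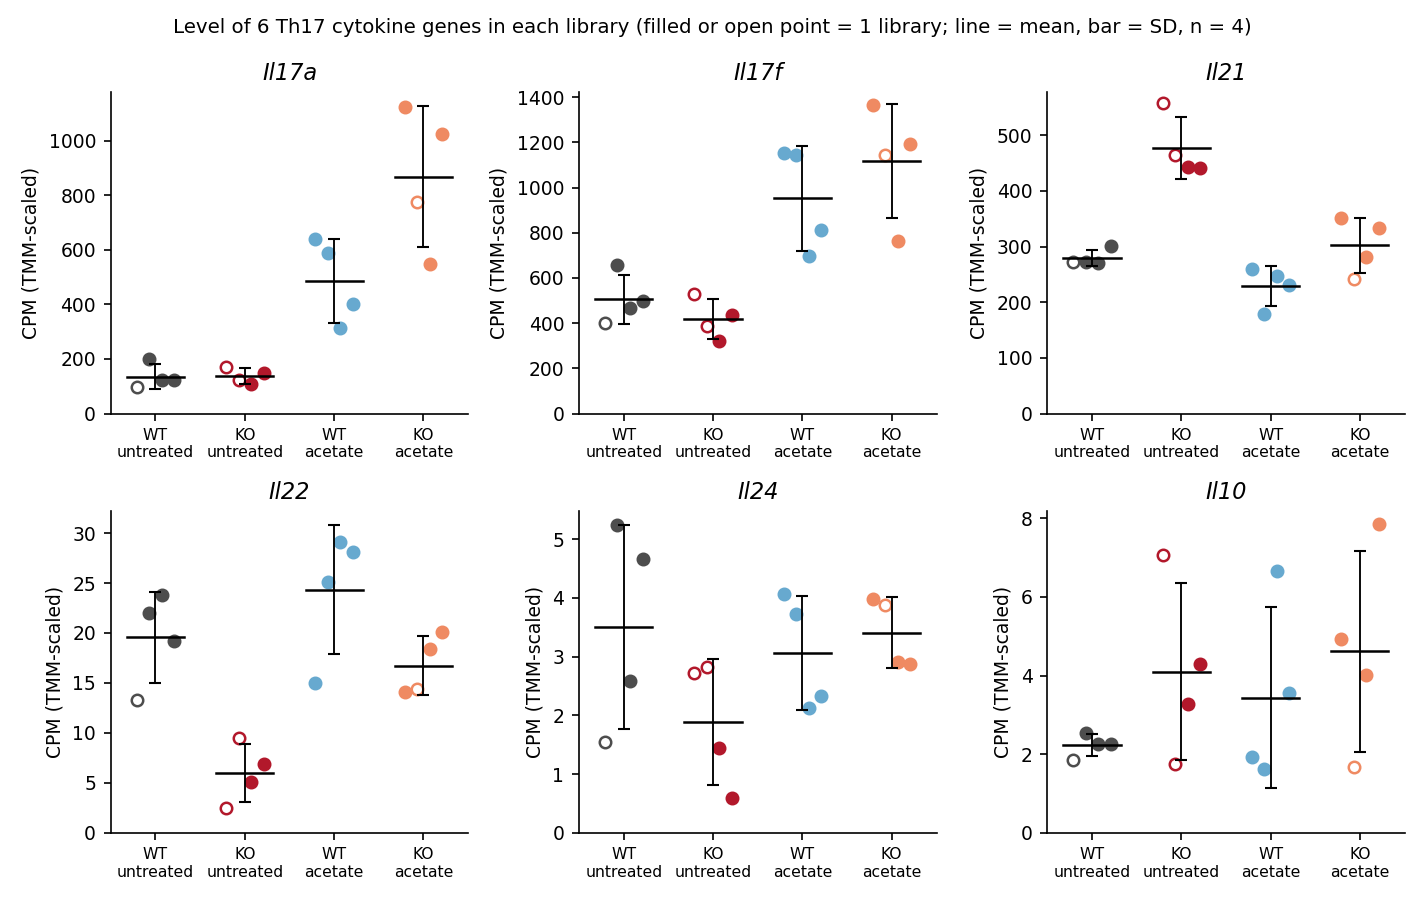
Each panel plots CPM (vertical axis, from 0) of 1 cytokine gene in the 4 groups. A point is 1 library, open where 1 unnamed gene took over 3% of counts, and line and bar are the mean and SD (n = 4). Il17a and Il17f stood highest in the acetate groups, Il21 was highest and Il22 lowest in KO untreated, and Il24 and Il10 stayed under 8 CPM.

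Il17a, the gene of the defining cytokine of these cells, rose with acetate in both genotypes, while its levels in KO and WT cells without acetate overlapped. In WT untreated libraries it was at 96.4, 199, 123 and 122 CPM, and in KO untreated at 171, 122, 109 and 149 CPM. The log2 fold change of KO against WT was 0.02 (SE 0.294; edgeR quasi-likelihood test with Benjamini-Hochberg adjustment over all genes tested, adjusted p = 0.962). Its 95% interval ran from -0.61 to 0.66, so the sign is not fixed by these libraries. With acetate, WT libraries held 639, 588, 312 and 401 CPM, all above every untreated library. KO acetate libraries held 1124, 776, 548 and 1023 CPM, also above every untreated library. The rise was 3.59-fold in WT (log2 1.84, SE 0.302, adjusted p = 0.00146) and 6.31-fold in KO (log2 2.66, SE 0.310, adjusted p = 1.71e-05). In RNA from whole cultures, fewer cells of a type and less RNA per cell cannot be told apart.

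The order of mean Il17a levels was WT untreated (135 ± 44.4 CPM, SD, n = 4), KO untreated (137 ± 27.7), WT acetate (485 ± 154) and KO acetate (868 ± 258). The untreated groups overlapped, as did the acetate groups, in which 1 KO library lay inside the WT range. KO against WT with acetate gave a log2 fold change of 0.84 (SE 0.293, 95% interval 0.20 to 1.47, unadjusted p = 0.0137), which missed the threshold after edgeR's adjustment (adjusted p = 0.154). Of the 14985 genes tested, 0.561% rose more with acetate in KO cells than Il17a and 0.687% more in WT cells. KO acetate stood 6.42-fold above WT untreated (log2 2.68, SE 0.311, adjusted p = 7.55e-05), with no overlap. The acetate effect did not differ between genotypes beyond the threshold (interaction log2 0.82, 95% interval -0.08 to 1.71, adjusted p = 0.234).

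Il17f, whose product pairs with IL-17A, also rose with acetate in both genotypes, with smaller fold changes than Il17a. Its levels were 399, 657, 466 and 497 CPM in WT untreated and 529.9, 386, 319.5 and 438 CPM in KO untreated libraries, which overlapped. With acetate they were 1155, 1146, 696 and 811 CPM in WT and 1367, 1142, 765 and 1194 CPM in KO. Every acetate library exceeded every untreated library. The rise was 1.89-fold in WT (log2 0.92, SE 0.224, adjusted p = 0.0139) and 2.67-fold in KO (log2 1.42, SE 0.226, adjusted p = 0.000178). Without the 4 libraries in which 1 unnamed gene took over 3% of counts, the rise in WT was 0.81 on the log2 scale and missed the threshold (adjusted p = 0.0822).

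For genotype, Il17f differed by -0.27 on the log2 scale without acetate (SE 0.222, adjusted p = 0.372) and by 0.23 with acetate (SE 0.222, adjusted p = 0.616), and neither passed the test. The 95% intervals of these differences, -0.75 to 0.21 and -0.25 to 0.71, leave out a change of 2-fold in either direction. KO acetate cells held 2.21-fold more Il17f transcript than WT untreated cells (log2 1.15, SE 0.225, adjusted p = 0.00237). The interaction of 0.50 (SE 0.314) had an adjusted p of 0.341.

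Counts of 2 genes in the same library can be set against each other without scaling, and gene length cancels when their ratio is compared between groups. There were 0.264 ± 0.0282 Il17a counts per Il17f count in WT untreated libraries (SD, n = 4), 0.329 ± 0.0127 in KO untreated, 0.502 ± 0.0439 in WT acetate and 0.769 ± 0.0840 in KO acetate. The ranges were 0.242 to 0.303, 0.315 to 0.341, 0.448 to 0.554 and 0.680 to 0.857, so no 2 groups overlapped. The mean log2 ratio was 0.93 higher with acetate in WT and 1.22 higher in KO libraries. The KO mean exceeded the WT mean by 0.33 without and by 0.61 with acetate. These differences are described and were not tested, because the pair was looked at with the values of both genes known.

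The ratio was steadier than either gene. The pooled SD within groups was 0.43 on the log2 scale for Il17a, 0.33 for Il17f and 0.13 for their ratio, against a median of 0.12 over 9876 genes of at least 5 CPM. The library highest in Il17a was also the highest in Il17f in each group, as in replicate 2 of WT untreated and replicate 1 of KO acetate. Of those genes, 98.6% had a smaller SD than Il17a and 97.2% a smaller SD than Il17f.

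**Figure D2:**
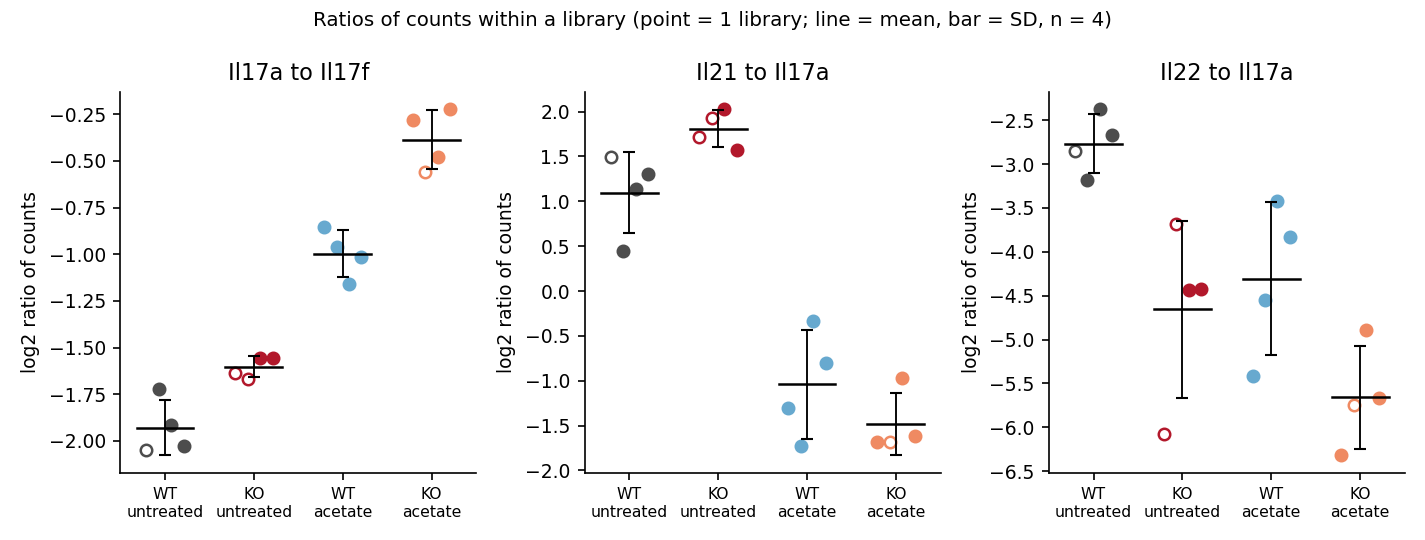
The vertical axis is the log2 ratio of estimated counts of 2 genes in the same library, by group. A point is 1 library, open where 1 unnamed gene took over 3% of counts, and line and bar are the mean and SD (n = 4). In the left panel the mean ratio of Il17a to Il17f goes from -1.93 in WT untreated to -1.60, -0.997 and -0.39 in KO untreated, WT acetate and KO acetate, with no overlap.

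Il21, which encodes a cytokine that Th17 cells make and respond to, had a different pattern. It was higher in KO than in WT cells without acetate and fell with acetate in KO cells. WT untreated libraries held 272, 272, 271 and 300.5 CPM, and KO untreated libraries 559, 464, 443 and 441 CPM, with no overlap. The difference was 1.71-fold (log2 0.77, SE 0.120, adjusted p = 0.000105). Acetate libraries held 259, 178, 247 and 231 CPM in WT and 351, 242, 281 and 334 CPM in KO. Every KO acetate library lay below every KO untreated library, and the fall was 1.58-fold (log2 -0.66, SE 0.120, adjusted p = 0.000265).

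In WT cells Il21 was also lower in all 4 acetate libraries than in any untreated one, but the difference of -0.29 on the log2 scale (SE 0.120) missed the threshold (adjusted p = 0.120). The order of means was WT acetate (229 ± 35.6 CPM), WT untreated (279 ± 14.4), KO acetate (302 ± 49.9) and KO untreated (477 ± 55.6), in which WT untreated and KO acetate overlapped. KO acetate against WT untreated gave 0.11 (SE 0.120, 95% interval -0.14 to 0.37, adjusted p = 0.519). With acetate in both genotypes the KO level was 0.40 above WT on the log2 scale (SE 0.120, unadjusted p = 0.00377, edgeR adjusted p = 0.0974), with overlap of 1 KO library. DESeq2 called this difference (0.40, adjusted p = 0.0266). It was also called without the 4 libraries with over 3% on 1 unnamed gene (0.49, adjusted p = 0.0323) and without KO acetate replicate 2 alone (0.49, adjusted p = 0.0287).

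Set against Il17a, Il21 counts numbered 2.21 ± 0.620 per Il17a count in WT untreated libraries (SD, n = 4) and 3.53 ± 0.502 in KO untreated. In acetate libraries they numbered 0.518 ± 0.214 in WT and 0.366 ± 0.0977 in KO. The untreated genotypes did not overlap in this ratio, while the acetate groups overlapped each other and lay below all untreated libraries.

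Il22, whose product acts on epithelial barriers, had the largest fold change of the 6 members in KO against WT without acetate, except without the 4 libraries with over 3% on 1 unnamed gene, where it was at -1.86 and Il24 at -2.03 on the log2 scale. It stood at 13.3, 22.0, 23.8 and 19.2 CPM in WT untreated libraries and at 2.53, 9.45, 5.04 and 6.91 CPM in KO untreated, with no overlap. KO was 3.25-fold lower (log2 -1.70, SE 0.329, adjusted p = 0.00134), and 0.541% of genes fell further. With acetate Il22 was at 15.0, 25.1, 29.1 and 28.1 CPM in WT and at 14.0, 14.4, 18.4 and 20.0 CPM in KO, and the 2 groups overlapped. Acetate raised it 2.78-fold in KO cells (log2 1.47, SE 0.330, adjusted p = 0.00258), all 4 acetate libraries lying above all 4 untreated ones.

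In WT cells the change of Il22 with acetate was 0.31 on the log2 scale (SE 0.306, 95% interval -0.35 to 0.97, adjusted p = 0.563). KO acetate differed from WT untreated by -0.23 (SE 0.309, 95% interval -0.89 to 0.44, adjusted p = 0.631) and from WT acetate by -0.54 (SE 0.308, adjusted p = 0.375). The difference between the acetate effects was 1.16 (SE 0.448, 95% interval 0.20 to 2.13, unadjusted p = 0.0221), which missed the threshold in edgeR (adjusted p = 0.112). It was called without the 4 libraries with over 3% on 1 unnamed gene (1.39, adjusted p = 0.0462) and without KO untreated replicate 2 alone (1.47, adjusted p = 0.04997). The counts behind Il22 were 65 to 986 per library.

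Il24 and Il10 had the fewest counts of the members, with 16 to 173 and 45 to 226 estimated counts per library. Il24, a cytokine of the IL-10 family, was at 1.55, 5.24, 2.59 and 4.66 CPM in WT untreated, 2.72, 2.82, 1.44 and 0.588 in KO untreated, 4.06, 3.72, 2.12 and 2.34 in WT acetate and 3.97, 3.89, 2.91 and 2.87 in KO acetate libraries. The 4 KO acetate libraries lay above the 4 KO untreated ones, by a small margin. Neither this difference (log2 0.85, SE 0.425, adjusted p = 0.122) nor that of KO against WT without acetate (log2 -0.89, SE 0.424, adjusted p = 0.114) passed the test. Without the 4 libraries with over 3% on 1 unnamed gene both did, at 1.67 (adjusted p = 0.00826) and -2.03 (adjusted p = 0.00416), and so did the interaction at 2.12 (adjusted p = 0.0296). For KO untreated, that fit kept only replicates 3 and 4, with 40 and 16 Il24 counts. The genotype difference also passed without WT untreated replicate 1 alone (-1.13, adjusted p = 0.0403).

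Il10, an anti-inflammatory cytokine made by many helper T cells, varied most within groups. Its levels were 1.86, 2.54, 2.26 and 2.26 CPM in WT untreated and 7.07, 1.75, 3.27 and 4.30 CPM in KO untreated libraries. With acetate they were 1.92, 1.62, 6.66 and 3.56 CPM in WT and 4.92, 1.68, 4.01 and 7.84 CPM in KO. All groups overlapped. In the 5 comparisons of groups the log2 fold changes ran from 0.18 for acetate in KO cells to 1.05 for KO acetate against WT untreated (SE 0.517, adjusted p = 0.153), and none passed the test. The change with acetate in KO turned negative without KO untreated replicate 2 (-0.085) or KO acetate replicate 4 (-0.20). The 95% interval of KO against WT without acetate, -0.25 to 1.98, includes a change of more than 2-fold. The pooled SD within groups was 0.79 on the log2 scale for Il10 and 0.72 for Il24. The median was 0.12 over 9876 genes that averaged 5 CPM or more, a level that Il10 and Il24 did not reach.

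Over the 6 members, KO against WT without acetate gave 2 calls, Il21 higher and Il22 lower, where 36.6% of all genes tested were called (18.0% higher, 18.6% lower). Both genes were also without overlap, as were 36.0% of all genes. KO against WT with acetate gave 0 calls in edgeR, where 1.00% of genes were called (0.487% higher, 0.514% lower); unadjusted p was under 0.05 for 2 members. DESeq2 called 1 member there and 6.75% of the genes it tested (2.65% higher, 4.10% lower). The edgeR count of 150 genes ran from 21 to 661 when 1 library was left out, with 0 to 1 members called. No member was without overlap there, against 9.36% of all genes. Acetate in WT gave 2 calls, Il17a and Il17f, where 15.4% of genes were called (7.89% higher, 7.55% lower). There 3 members, these and Il21, had no overlap, against 21.3% of all genes.

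Acetate in KO gave 4 calls, Il17a, Il17f and Il22 higher and Il21 lower, where 43.7% of genes were called (22.1% higher, 21.6% lower). In 5 members the libraries did not overlap, against 37.7% of all genes. KO acetate against WT untreated gave 2 calls, Il17a and Il17f higher, where 26.4% of genes were called (12.9% higher, 13.5% lower) and 28.4% had no overlap. The interaction gave 0 calls in edgeR, where 11.9% of genes were called (6.37% higher, 5.54% lower), with an unadjusted p under 0.05 for Il21 and Il22. The median log2 fold change of the members was -0.12, 0.32, 0.47, 1.13, 0.58 and 0.66 in the order of these 6 comparisons, while that of all genes lay between -0.01 and 0.01. The comparisons share libraries, so their calls are not independent of each other.

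**Figure D3:**
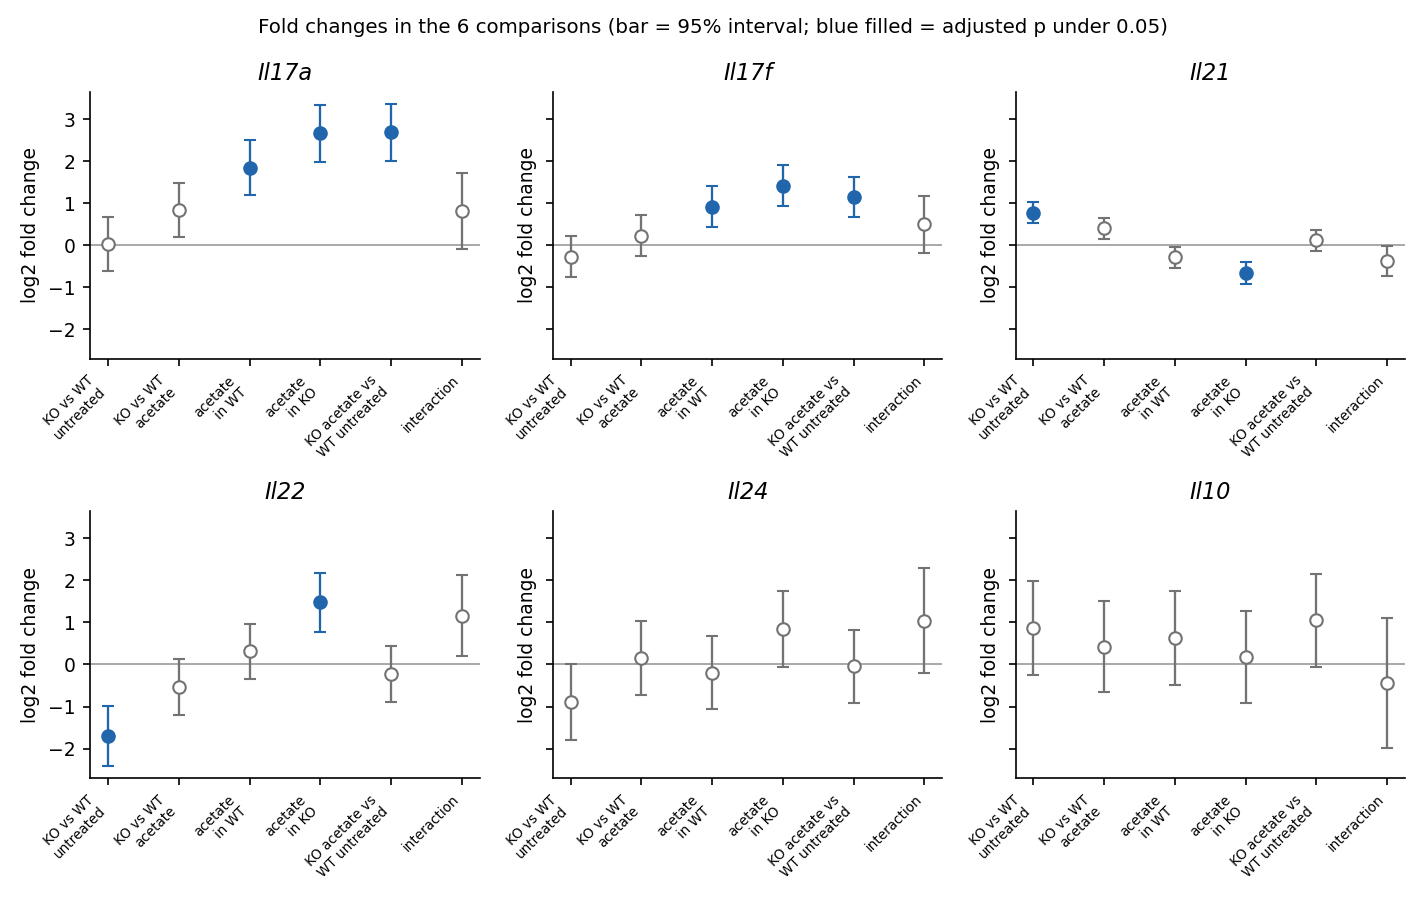
Each panel plots the log2 fold change of 1 gene (vertical axis) in 5 comparisons and the interaction, with its 95% interval. Filled blue points passed the test at an adjusted p under 0.05. Il17a and Il17f were called in the 3 comparisons that add acetate, Il21 and Il22 in opposite directions for genotype without acetate and for acetate in KO, and Il24 and Il10 in none.

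Markers of other lymphocytes that can make these cytokines moved in part with acetate. The summed level of 3 CD8 T cell markers was 13.6 to 15.8 CPM in WT untreated, 8.94 to 14.4 in KO untreated, 19.7 to 21.9 in WT acetate and 17.6 to 23.1 in KO acetate libraries. Cd8a, one of these, had a log2 fold change of 1.86 for acetate in KO (adjusted p = 0.000183). There 2 of the 3 markers rose, as did 22.1% of all genes, and with acetate in WT 1 rose, as did 7.89%. In KO against WT without acetate 2 of the 3 fell, as did 18.6% of all genes. The level of Cd8a was low, with group means of 0.540 to 1.98 CPM. For innate lymphoid and NK cells 2 of 5 markers were in the table, Klrk1 and Nkg7, with sums of 10.5 to 17.2, 8.67 to 16.2, 21.1 to 43.7 and 23.6 to 41.1 CPM in the same order. Nkg7 made up most of these sums, with a mean of 30.9 of 32.8 CPM in WT acetate libraries. Of the 2 genes, only Nkg7 rose with acetate (log2 1.26 in WT, adjusted p = 0.0110, and 1.58 in KO, adjusted p = 0.000791). Of all genes, 7.89% rose in WT and 22.1% in KO. Klrk1 was not called with acetate, and its KO mean was 2.18 CPM without acetate and 2.14 CPM with it. For genotype without acetate Klrk1 rose, as did 18.0% of all genes. There Nkg7 averaged 9.48 CPM in KO, below 13.0 CPM in WT. None of the 5 gamma-delta T cell markers tested was called in any of the 6 comparisons, in which 1.00% to 43.7% of all genes were called. Trdc was at 1.27 to 5.21 CPM, and group means of Tcrg-C1, Tcrg-C4 and Sox13 were 0.260 to 0.916 CPM. At such levels the lack of calls does not show that these genes were unchanged. The 4 mast cell and basophil markers summed to 4.34 to 6.26 CPM in KO untreated libraries. In the other groups they summed to 1.54 to 3.23 CPM. Kit made up most of the sum in KO untreated libraries, with a mean of 3.42 of 5.10 CPM. Of the 3 markers tested, only Kit was called for genotype without acetate. It was higher in KO (log2 1.93, adjusted p = 5.17e-05), as were 18.0% of all genes. Mcpt8 and Ms4a2 were not called there, and Cpa3 was not tested. Of 4 regulatory T cell markers, Foxp3 was at 2.02 to 16.3 CPM and not called in any comparison, while the other 3 were called in some. Ikzf2 rose in KO without acetate (log2 0.91, adjusted p = 0.00270) and fell with acetate in KO (-0.63, adjusted p = 0.0195). Tnfrsf18 did the opposite (-0.66, adjusted p = 0.00316, and 0.47, adjusted p = 0.0181). Il2ra, also a marker of activated T cells, fell with acetate in WT (-0.26, adjusted p = 0.0292) and in KO (-0.26, adjusted p = 0.0105). The acetate calls of these 3 genes were each lost in some alternative fits, among them library totals as the only scaling for Il2ra and Ikzf2 and fits without KO acetate replicate 2 for Ikzf2 and Tnfrsf18. The part of these cells in the results for the 6 cytokine genes was not tested.

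The receptor and adaptor list had 9 of its 13 genes in the table, and in KO against WT without acetate 1 rose and 4 fell, where 18.0% of all genes rose and 18.6% fell. Il10ra, the ligand-binding chain of the IL-10 receptor, fell there (log2 -0.58, SE 0.140, adjusted p = 0.00337) and rose with acetate in WT (0.58, SE 0.136, adjusted p = 0.00681) and in KO cells (0.96, SE 0.140, adjusted p = 2.07e-05). Its genotype difference missed the threshold without the 4 libraries with over 3% on 1 unnamed gene (-0.45, adjusted p = 0.0733). Il21r, the IL-21 receptor, fell with acetate in KO cells (-0.38, SE 0.0867, adjusted p = 0.00154), as its ligand did. Il17ra, the shared IL-17 receptor chain, fell there as well (-0.36, SE 0.0535, adjusted p = 2.80e-05), while its ligands rose. With acetate, KO against WT gave 0 calls in this list, where 1.00% of all genes were called. Without the 4 libraries with over 3% on 1 unnamed gene, 0 rose and 2 fell for genotype without acetate, and without KO untreated replicate 1 alone 2 rose.

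Of 9 genes of the JAK-STAT relay, 3 rose and 3 fell in KO against WT without acetate, and 3 rose and 3 fell with acetate in KO cells. Over all genes, 18.0% rose and 18.6% fell in the former, and 22.1% and 21.6% in the latter. Stat3 averaged 376 ± 25.1, 244 ± 15.6, 404 ± 55.0 and 392 ± 42.0 CPM (SD, n = 4) in WT untreated, KO untreated, WT acetate and then KO acetate libraries. It fell in KO without acetate (log2 -0.62, SE 0.0918, adjusted p = 4.68e-05) and rose with acetate in KO (0.68, SE 0.0918, adjusted p = 9.26e-06), the directions of Il22. In WT cells 2 genes of the relay, Jak2 and Jak3, fell with acetate and 0 rose, where 7.55% of all genes fell and 7.89% rose. The 2 that fell became 1 when replicate 1 or 2 of WT acetate or replicate 3 of WT untreated was left out. For acetate in KO, 1 gene in place of 3 rose when replicate 1 or 3 of KO untreated or replicate 1, 2 or 3 of KO acetate was left out, and for genotype 1 gene in place of 3 fell without the 4 libraries with over 3% on 1 unnamed gene.

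Of 20 transcription factors tested that are known to act on these genes, 7 fell and 2 rose in KO against WT without acetate, and 10 rose and 2 fell with acetate in KO cells. The shares over all genes were 18.6% lower and 18.0% higher in the first comparison, and 22.1% higher and 21.6% lower in the second. Of the smaller counts, the 2 that fell with acetate in KO became 1 when replicate 1 or 3 of KO untreated or replicate 1, 2 or 3 of KO acetate was left out. The 2 that rose for genotype became 1 without the 4 libraries with over 3% on 1 unnamed gene. Hif1a, the oxygen-regulated factor, was at 660 ± 89.8, 324 ± 31.0, 707 ± 172 and 725 ± 89.2 CPM in the 4 groups (in the order given for Stat3). Fosl2, an AP-1 subunit, was at 145 ± 27.8, 45.6 ± 4.92, 145 ± 44.96 and 159 ± 28.7 CPM. Both fell in KO without acetate (-1.03 and -1.67, adjusted p = 8.98e-05 and 7.04e-05) and rose with acetate in KO (1.16 and 1.80, adjusted p = 1.54e-05 and 2.00e-05).

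Maf, a factor known to act on Il21 and Il10, rose in KO without acetate (log2 0.90, SE 0.136, adjusted p = 0.000111). Nfkbiz, which encodes the IκBζ cofactor, had the order of groups of Il17a, at 24.4 ± 3.73, 26.4 ± 2.04, 34.1 ± 4.14 and 48.4 ± 5.81 CPM (SD, n = 4). It rose with acetate in WT (0.49, SE 0.111, adjusted p = 0.00642) and in KO (0.87, SE 0.111, adjusted p = 5.63e-06). It was the only factor of the list called for genotype with acetate (0.50, SE 0.110, adjusted p = 0.0349), and that call was lost in 7 of its alternative fits, 5 of which left out 1 library. Those libraries were WT acetate replicates 1, 3 and 4 and KO acetate replicates 1 and 3. Rora, a marker of the Th17 fate, rose with acetate in KO cells by 0.72 (SE 0.148, adjusted p = 0.00105). Tbx21, another factor of the list, rose with acetate in both genotypes. It was at 22.6 ± 3.67 and 45.5 ± 10.1 CPM in WT untreated and WT acetate libraries. In KO untreated and KO acetate libraries it was at 18.4 ± 2.89 and 40.2 ± 6.89 CPM.

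**Figure D4:**
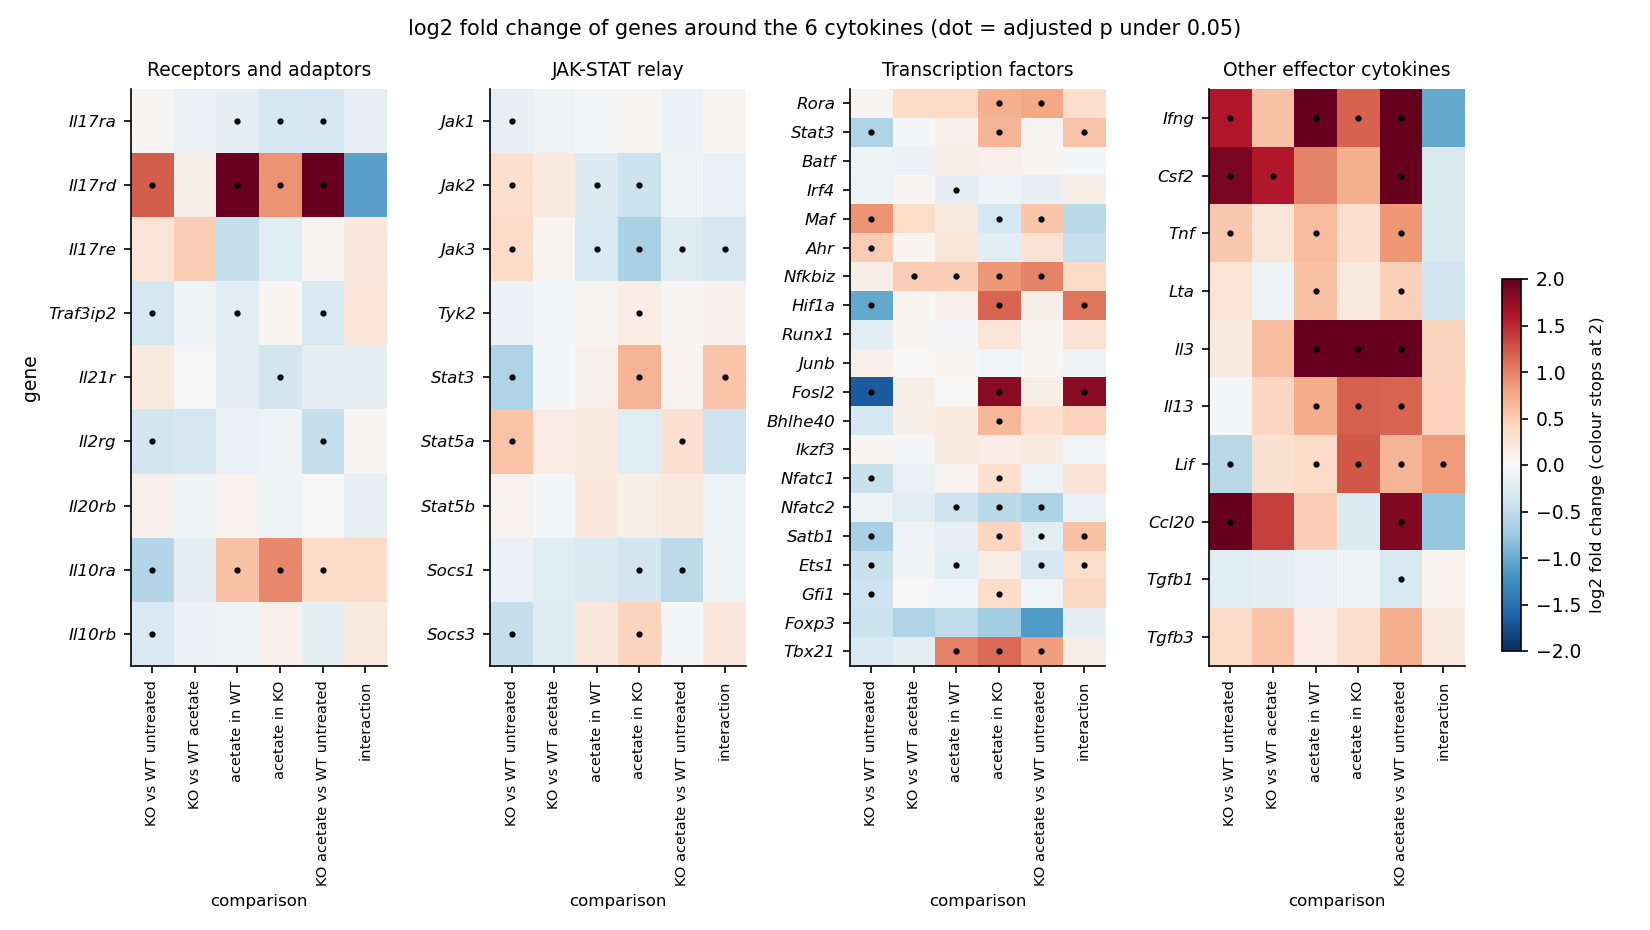
Colour gives the log2 fold change of each gene (rows, by list) in each comparison (columns) and stops at 2; dots mark an adjusted p under 0.05. In the transcription factor panel 7 genes fell and 2 rose for genotype without acetate, and 10 rose and 2 fell for acetate in KO; for genotype with acetate, dots stand at Nfkbiz and Csf2 only.

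Of 10 other effector cytokine genes tested, 6 rose with acetate in WT, 4 rose in KO, and 4 rose and 1 fell in KO against WT without acetate. Of all genes, 7.89% rose with acetate in WT and 22.1% in KO, and 18.0% rose and 18.6% fell for genotype. The 6 became 3 when replicate 2, 3 or 4 of WT untreated was left out and 2 without WT acetate replicate 4. For genotype, 2 in place of 4 rose without the 4 libraries with over 3% on 1 unnamed gene, and 2 in place of 1 fell without replicate 4 of either untreated group. Il3, a growth factor of myeloid cells, rose by 2.06 in WT (SE 0.398, adjusted p = 0.00374) and by 2.50 in KO (SE 0.400, adjusted p = 0.000192), close in size to Il17a. Csf2, the gene of GM-CSF, was at 7.11 ± 2.03 and 26.4 ± 8.34 CPM in WT and KO untreated and at 14.2 ± 5.55 and 43.1 ± 6.79 CPM in WT and KO acetate libraries (SD, n = 4). KO exceeded WT without acetate (log2 1.89, SE 0.315, adjusted p = 0.000477) and with it (1.60, SE 0.301, adjusted p = 0.0297). The latter call was lost in 6 alternative fits, 5 of which left out 1 of WT acetate replicates 2, 3 and 4 and KO acetate replicates 1 and 3. Il2, the neighbour of Il21, rose in KO without acetate as Il21 did (0.98, SE 0.125, adjusted p = 1.60e-05). With acetate Il2 rose in KO (0.47, SE 0.124, adjusted p = 0.00558) where Il21 fell.

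Genes with the profile closest to each member were found over the 16 libraries, as the smallest root mean square (RMS) difference between log2 CPM centred on each gene's mean, among 9098 genes. For Il17a they were Il3 (RMS 0.41), Dclk1, Upp1, Sox4 and Upb1, where Il17a itself had an SD of 1.21 and differed from Il17f by an RMS of 0.60. For Il17f they were Slc15a3 (0.23), Syde2, Pdpn, Serpinb9 and Runx2. For Il21 they were Adal (0.16), Thg1l, Casp4, Zfp62 and Thoc6. The closest gene to Il21 among the members was Il10, at an RMS of 0.68. That is more than the SD of 0.42 of Il21 itself, so no other member had a profile close to that of Il21.

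For Il22 the closest was Il23r (RMS 0.42), the IL-23 receptor chain, then Reep2, Cisd3, Sidt1 and Lpcat4. Il23r averaged 27.3 ± 3.13 CPM in WT untreated, 7.82 ± 2.48 in KO untreated, 28.8 ± 1.82 in WT acetate and 24.4 ± 1.54 in KO acetate libraries (SD, n = 4). It fell in KO without acetate (log2 -1.80, SE 0.147, adjusted p = 1.70e-07) and rose with acetate in KO (1.64, SE 0.147, adjusted p = 1.41e-07), the 2 comparisons in which Il22 was called. Because Il23r was picked here for its likeness to Il22 in these libraries, the shared directions are no separate evidence. For Il24 the genes were Ntrk3 (0.39), Pde4d, Mturn, Gnb5 and Mctp2, and for Il10 they were Il1a (0.50), Fes, Mat2a, Tnf and Ccne2. With SDs of 0.73 and 0.74 for Il24 and Il10 themselves, these RMS differences were larger relative to the SD than those of the closest genes of the other members.

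**Figure D5:**
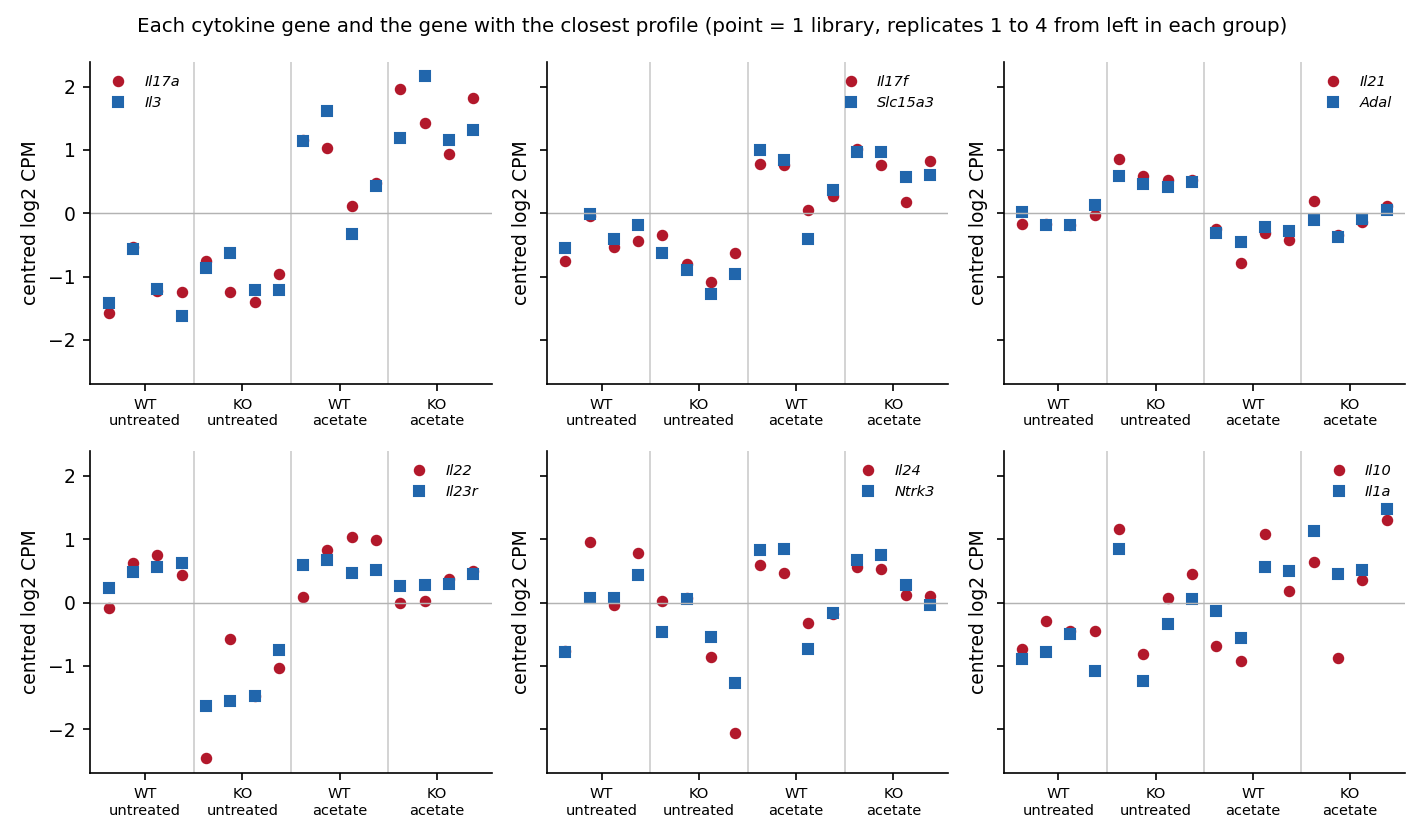
The vertical axis is log2 CPM centred on the gene's mean over 16 libraries, for each member (red circles) and its closest gene (blue squares), by group with replicates 1 to 4 from the left. Il17a and Il3 both stand above 0 in nearly all acetate libraries and below 0 in untreated ones, and Il22 and Il23r are lowest in KO untreated.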

How the data were processed

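The values in the table of 16 libraries that the authors deposited are estimated counts rounded to whole numbers. Salmon, DESeq and DESeq2 are named, with no versions, in the submitters' processing notes, and per the labels' protocols libraries were made with a stranded mRNA kit. The build, annotation and rounding step were not given in the sources used here. Symbols were matched to 15221 of 15571 identifiers, and 350 had none.

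Counts were fitted with edgeR 4.0.16 (limma 3.58.1, R 4.3.3): TMM scaling, a filter on low counts by group, 1 model of 4 groups over all 16 libraries, the robust quasi-likelihood F test and Benjamini-Hochberg adjustment over 14985 genes. A gene was called at an adjusted p under 0.05, and a gene is said to have risen or fallen only where it was called. The fits were tested on simulated data. For KO against WT with acetate, 75% of genes changed by 1 on the log2 scale and 87% of those changed by 2 were recovered. There 10 of 172 calls were false. For the interaction these shares were 72% and 80%, and 5 of 157 calls were false. The changed genes were 200 of 14985, drawn at random, and no rate was computed for the members. Within groups the members had larger SDs than 84.2% to 99.7% of genes that averaged 5 CPM or more. Alternatives were DESeq2 1.42.0, other scalings, no filter, fewer groups or libraries, and added terms. In each of the 24 pairs of libraries of 1 group the counts differed beyond sampling noise (a chi-square of 6.18 to 214 for each degree of freedom), and no library was treated as a duplicate.

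The members and gene lists were chosen with earlier results of these data known. Genes named beside the members were up to 6 called genes per list and comparison with the smallest adjusted p, and the 5 genes closest to each member in profile (mean of at least 5 CPM; log2 CPM with a prior count of 2). Of the lists, 2 genes are not reported here and are in no count of a list.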

Additional observations from a re-analysis of the deposited data

Results flagged for a closer look

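Of 44 sets of 4 libraries checked for a single library far from the other 3, 3 stood out. Chance alone flags about 1 in 20 such sets. Il21 in WT untreated was at 300.5 CPM in replicate 4 and at 271 to 272 CPM in the other 3 libraries. The log2 ratio of Il21 to Il17a in KO acetate was -0.97 in replicate 3 and -1.68 to -1.62 in the others. The log2 ratio of Il10 to Il17a in WT untreated was -6.29 in replicate 2, the library highest in Il17a, and -5.77 to -5.70 in the others.

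The effect of acetate differed between the genotypes, by the interaction test in edgeR over all genes, for 10 of the 83 list genes tested. The lists include the members and the markers of other cells. Of all genes tested 11.9% were called, a share close to that in the lists. No member was among the 10. Acetate had a larger (more positive) effect in KO cells for Fosl2 (difference of log2 effects 1.80, adjusted p = 0.00252), Il23r (1.56, adjusted p = 0.000115), Hif1a (1.07, adjusted p = 0.00473), Lif (0.85, adjusted p = 0.00474), Satb1 (0.59, adjusted p = 0.00188), Stat3 (0.58, adjusted p = 0.00749) and Ets1 (0.36, adjusted p = 0.0241). It had a smaller or more negative effect in KO cells for Kit (-1.65, adjusted p = 0.0133), Il2 (-0.62, adjusted p = 0.0295) and Jak3 (-0.34, adjusted p = 0.00812). The calls for Il2, Ets1 and Jak3 are the less firm of these. Leaving out the 4 libraries in which 1 unnamed gene took over 3%, Il2 was at -0.47 (adjusted p = 0.137) and Ets1 at 0.27 (adjusted p = 0.169). With library totals as the only scaling, Il2 was at -0.56 (adjusted p = 0.0912) and Jak3 at -0.28 (adjusted p = 0.0783). The call for Il2 was also lost without each of 8 single libraries (adjusted p = 0.0501 to 0.0656), and that for Ets1 without KO acetate replicate 3 (0.32, adjusted p = 0.0582) or WT acetate replicate 4 (0.34, adjusted p = 0.0512).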

How the results depend on the processing

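Of the 10 calls made for members over the 5 comparisons of groups, Il17f with acetate in WT was the exception that missed the threshold under an alternative: leaving out the 4 libraries in which 1 unnamed gene took over 3%, it was 0.81 (adjusted p = 0.0822), leaving 1 member called there. The other calls kept their direction and side of the threshold in each alternative run. Without those 4 libraries (2 of them KO untreated), 3361 genes were called for KO against WT without acetate (main 5481), 535 for KO against WT with acetate (main 150) and 1010 for the interaction (main 1785). Under that setting Il17a for genotype without acetate was -0.21, Il24 was -2.03 for genotype without acetate, 1.67 for acetate in KO and 2.12 for the interaction, and Il22 was 1.39 and Il10 0.017 for the interaction, so that 2 members were called for the interaction. Il21 in KO against WT with acetate was 0.49, the 1 member called there. The cause was not tested, beyond the fewer libraries in that fit.

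The count for KO against WT with acetate depended most on the method: 826 genes with DESeq2, 78 with library totals only, 16 with the compared groups alone, 234 with a term that set replicates 1 and 2 against the others, and 21 to 661 when 1 library was left out. DESeq2 called 1 member there, Il21 at 0.40. With library totals only, Il17a for genotype without acetate was -0.050. The term for replicates 1 and 2 against 3 and 4 put Il24 for genotype without acetate at -1.01 (adjusted p = 0.0400). Library totals moved the split of calls (higher and lower) from 2699 and 2782 to 1914 and 3217 for genotype without acetate, from 73 and 77 to 28 and 50 with acetate (DESeq2: 324 and 502), from 1183 and 1132 to 1196 and 558 for acetate in WT, from 3314 and 3236 to 4229 and 2085 for acetate in KO, from 1935 and 2019 to 1910 and 1254 for KO acetate against WT untreated, and from 955 and 830 to 939 and 442 for the interaction.

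Pairing by replicate number was taken to need correlations over 0.1 for all same-numbered libraries of 2 groups, which no 2 groups met: 9 of 24 were over 0.1 (range -0.08 to 0.23), and 12 of 24 were the best for that number. In KO untreated with KO acetate all 4 were the best for their number (0.0862 to 0.165), a hint from the data and not from the labels. With a replicate block, 408 genes were called for KO against WT with acetate, with Il21 as the 1 member (0.40, adjusted p = 0.0360). The block also put Il21 for acetate in WT at -0.30 (adjusted p = 0.0336) and Il22 for the interaction at 1.25 (adjusted p = 0.0164), the 1 member called there.

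With each library left out in turn, ranges were -0.11 to 0.27 for Il17a and -1.15 to -0.59 for Il24 in KO against WT without acetate, 0 to 1 members and 0.30 to 0.49 for Il21 in KO against WT with acetate, -0.44 to 0.065 for Il24 with acetate in WT, -0.20 to 0.57 for Il10 with acetate in KO and -0.29 to 0.22 for Il24 in KO acetate against WT untreated. For the interaction they were 0 to 1 members, 0.91 to 1.47 for Il22, -0.47 to -0.29 for Il21 and -0.83 to 0.11 for Il10; Il21 was called without WT acetate replicate 2 (adjusted p = 0.0498). Named genes of the lists kept their calls except in 188 fits, which touched 34 of 112 results. With prior count 0.5, 29 of the 30 genes closest to a member stayed among them.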

Other observations

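Il22, Il24 and Il10 were also set against Il17a within each library, as log2 ratios of counts with no test. For Il22 the mean was -2.77 ± 0.34 in WT untreated (SD, n = 4), -4.66 ± 1.01 in KO untreated, -4.31 ± 0.87 in WT acetate and -5.66 ± 0.59 in KO acetate. WT untreated stood above all other libraries in this ratio, so KO acetate cells, whose Il22 level overlapped that of WT untreated cells, held less Il22 per Il17a transcript. For Il24 the means were -5.37 ± 0.53, -6.41 ± 1.102, -7.31 ± 0.09 and -7.95 ± 0.43 in the same order. The 4 WT acetate libraries spanned -7.42 to -7.20 and lay above all 4 KO acetate libraries. For Il10 the means were -5.88 ± 0.28, -5.22 ± 0.64, -7.31 ± 1.41 and -7.70 ± 0.85.

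Dclk1, among the 5 genes closest to Il17a in profile, was at 16.9 ± 3.71 CPM in WT untreated (SD, n = 4), 16.4 ± 1.64 in KO untreated, 31.2 ± 6.61 in WT acetate and 79.5 ± 14.2 in KO acetate. Its KO acetate libraries, at 65.9 to 92.4 CPM, did not overlap the WT acetate libraries, at 23.4 to 37.1 CPM. Il9, which encodes a cytokine of the gamma-chain family, was at 29.3 ± 13.8 CPM in KO untreated and at 6.10 ± 2.09, 1.99 ± 1.31 and 2.61 ± 1.48 CPM in WT untreated, WT acetate and KO acetate libraries. It fell by 3.48 on the log2 scale with acetate in KO cells (SE 0.538, adjusted p = 0.000181), where Il21 fell and Il17a rose.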
